A study of Mus musculus with 18 samples.

Results

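The calcineurin and NFAT genes were described across RNA-sequencing data of small cell lung cancer (SCLC) cells in which p53 was switched back on. The 10 genes were chosen by name and found in the deposited table by gene symbol, 10 of 25239 genes. They encode the catalytic subunits of calcineurin (Ppp3ca and Ppp3cb), its regulatory subunit (Ppp3r1), the regulators Rcan1 and Rcan3, and the transcription factors Nfatc1, Nfatc2, Nfatc3, Nfatc4 and Nfat5.

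The study asked whether cyclophilin A, the product of Ppia, takes part in the necrosis that follows p53 restoration in Type D lines, the name given to lines that lyse some days after p53 returns. RNA was taken from 3 such mouse lines, 4711-1, 4711-18 and 4716-11, each carrying a control guide RNA against β-galactosidase (sgBgal), sgPpia#3.2 (Ppia exon 3) or sgPpia#4.1 (Ppia exon 4), delivered with Cas9 by lentivirus. Each was kept for 72 h with vehicle (Control) or with 500 nM 4-OHT (Restored), which gave 18 samples, 6 conditions and 3 samples for each, 1 from every line. All the lines came from lung tumors started with adenoviral CMV-Cre in mice that were Trp53 XTR/XTR, Rb1 flox/flox and Rbl2 flox/flox and carried FlpO fused to the estrogen receptor at Rosa26. Controls and Restored cells therefore share the loss of Rb1 and Rbl2, and the gene trap that silences Trp53 is removed by FlpO only with 4-OHT. The study describes cyclophilin A protein as lowered rather than lost in cells with a Ppia guide RNA, and protein was not measured here. The 6 samples of a line share their source, and p-values measure the spread between lines and samples as deposited.

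Calcineurin is a phosphatase that calcium and calmodulin switch on. It removes phosphates from NFATc1 to NFATc4, which then enter the nucleus, while NFAT5 answers to osmotic stress and is not a calcineurin substrate of this kind. Cyclosporin A bound to cyclophilin A blocks calcineurin, which makes this phosphatase and its targets the other path that the drug reaches. The study reports that FK506, which blocks calcineurin but not cyclophilins, did not prevent the death of Type D cells. NIM-811, which blocks cyclophilins and spares calcineurin, did prevent it. No sample here received cyclosporin A. RCAN proteins bind calcineurin and restrain it, and Rcan1 is itself a well-known NFAT target through its downstream promoter.

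Rcan1 starts from alternative promoters, and a value per gene cannot tell them apart. They are shown because 1 of them holds the letters that NFAT proteins bind, and because Rcan1 was among the members that were higher in Restored cells. RefSeq (GRCm38.p6) places the upstream window at chr16:92466120-92466419 and the downstream window at chr16:92400029-92400328, both on the minus strand, from 250 bases before to 50 bases after the start site. Capitals mark the NFAT core GGAAA, read on either strand (TTTCC on the other).
Rcan1 upstream window: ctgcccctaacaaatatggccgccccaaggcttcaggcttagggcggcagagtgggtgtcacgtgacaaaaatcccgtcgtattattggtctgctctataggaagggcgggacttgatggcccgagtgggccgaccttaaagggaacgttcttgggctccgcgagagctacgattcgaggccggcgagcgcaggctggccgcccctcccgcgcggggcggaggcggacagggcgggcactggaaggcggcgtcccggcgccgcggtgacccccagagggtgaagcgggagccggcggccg
Rcan1 downstream window: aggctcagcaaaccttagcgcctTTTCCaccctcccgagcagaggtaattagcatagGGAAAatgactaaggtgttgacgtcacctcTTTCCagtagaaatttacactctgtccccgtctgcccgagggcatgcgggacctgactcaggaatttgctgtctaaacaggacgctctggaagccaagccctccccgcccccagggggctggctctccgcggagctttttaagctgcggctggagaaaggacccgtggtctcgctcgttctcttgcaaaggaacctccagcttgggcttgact
The downstream window held 3 cores and the upstream window 0. Of the other members, the Ppp3cb window held 4 cores, and a window of Nfatc2 and the Nfatc4 window held 3 each. Of all 32851 promoter windows of 300 bases in that RefSeq table, 61.3% held at least 1 core and 9.42% held at least 3, so the letters are common. Windows were read for 8 of the 10 members, 11 windows in all, and 8 of these 11 held a core. No window of Ppp3ca or Nfatc1 was read, so the counts over the 11 windows leave these genes out. A p53 half-site was found in 1 of the 11, the Ppp3cb window, against 8.36% of all windows. These matches are letters and not measured binding.

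The labels were checked first. Trp53 was at 5.45 to 8.41 TPM (a level already scaled for gene length and for depth) in the 9 Control samples and at 181 to 236 TPM in the 9 Restored samples. Cdkn1a, the p53 target that encodes p21, was at 99.4 to 369 TPM and at 1565 to 3806 TPM. The 369 TPM was the Control sample of 4711-18 with sgPpia#3.2, and the next highest Control sample was at 171 TPM. Ppia in Control cells was at 2575 to 2849 TPM with sgBgal, at 658 to 1207 TPM with sgPpia#3.2 and at 1684 to 1952 TPM with sgPpia#4.1. In Restored cells sgPpia#3.2 (769 to 1233 TPM) stayed under sgBgal (1551 to 2730 TPM), while sgPpia#4.1 (1191 to 1765 TPM) overlapped it. Of the markers of SCLC, Chga and Calca were at or under 0.156 TPM in every sample and Ncam1 was at 6.90 to 29.7 TPM, while Yap1 was at 63.2 to 125 TPM. The summed level of 8 leukocyte markers was 3.54 to 7.73 TPM in Control and 23.4 to 43.3 TPM in Restored samples. Cd68 carried most of it, with at most 39.8 TPM, and the pan-leukocyte marker Ptprc was at or under 0.0814 TPM in all 18 samples. The part of these markers in the differences given here was not tested. Relative depth, read from the steps between low values, ran from 1 to 1.775 times the shallowest sample.

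Among the 10 members, Ppp3r1 and Ppp3ca stood highest and the NFAT factors were spread over more than 2 orders of magnitude. Mean levels over the 18 samples were 90.2 TPM ± 15.1 (SD, n = 18) for Ppp3r1 and 58.5 TPM ± 13.1 for Ppp3ca. They were followed by Nfatc3 with 38.1 TPM ± 7.89 and Ppp3cb with 34.5 TPM ± 6.99. These SDs take in the differences between lines and states. Ppp3r1 lay above Ppp3ca in 18 of 18 samples and Ppp3ca above Nfatc3 in 17, whereas Nfatc3 lay above Ppp3cb in only 8 of 18, so that pair has no settled order.

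Nfat5 (24.3 TPM ± 10.8), Rcan1 (22.6 TPM ± 8.44) and Rcan3 (19.9 TPM ± 5.65) formed a middle group. Nfat5 lay above Rcan1 in 7 of 18 samples and Rcan1 above Rcan3 in 13 of 18, so the order within the group is not settled either. Nfatc1, at 7.54 TPM ± 2.75, lay under Rcan3 in 18 of 18 samples, and their ranges did not overlap. Nfatc2 and Nfatc4 came last, with highest values of 3.10 and 0.668 TPM. Of the TPM summed over Nfatc1 to Nfatc4, Nfatc3 held 72.6% to 88.3% in each sample. The third catalytic subunit gene, Ppp3cc, which was not a member, held 1.66% to 4.23% of the TPM of the 3 catalytic genes, and the testis subunit gene Ppp3r2 was at or under 0.0398 TPM.

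**Figure D1:**
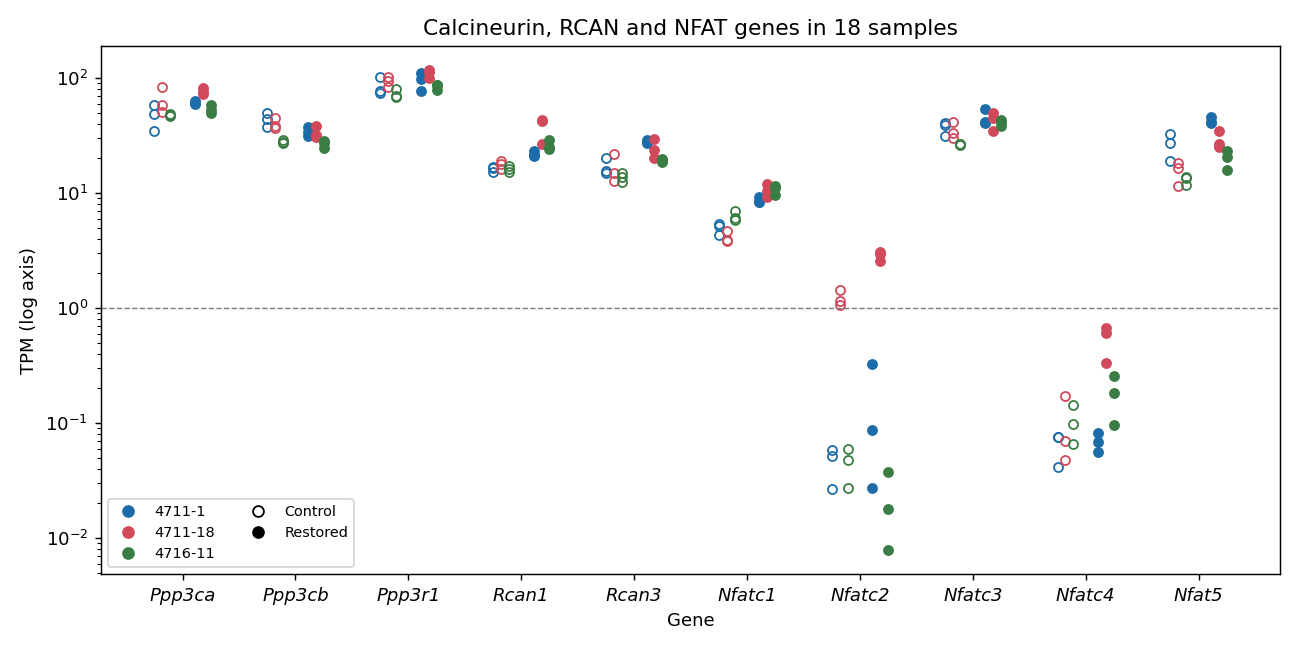
TPM of the 10 genes in each of the 18 samples on a log axis, open circles for Control and filled circles for Restored, colored by cell line, with a dashed line at 1 TPM. Ppp3r1 lies highest, Nfatc1 is between 3.83 and 11.9 TPM, Nfatc2 is above 1 TPM in 4711-18 cells alone, and Nfatc4 stays under 1 TPM in all samples.

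Genes at 1 TPM or more in 3 or more samples were tested, 12828 in all. Of the members, 9 of 10 were tested and Nfatc4 was not. Nfatc2 passed the filter through its 6 samples of 1 line.

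Restoring p53 was the first comparison, made within each guide RNA and as the mean over the 3 guide RNAs. No member reached the study's call, a Benjamini-Hochberg adjusted p under 0.05 with a change of 2-fold or more in either direction. In the limma fit 0 of 9 were called with sgBgal, where 7.64% of all genes tested were, 0 of 9 with sgPpia#3.2 (5.75%), 0 of 9 with sgPpia#4.1 (6.09%) and 0 of 9 for the mean (8.93%). Changes under 2-fold were therefore read from the adjusted p alone, a rule added after the values had been seen. With it Nfatc1 passed with sgBgal and with sgPpia#3.2, 1 of 9 members each, where 9.86% and 7.62% of all genes rose. With sgPpia#4.1 Nfatc1 and Rcan1 passed, 2 of 9, where 7.16% of all genes rose. For the mean over guide RNAs Nfatc1, Nfatc3, Nfat5, Rcan1 and Rcan3 passed upward, 5 of 9 against 27.9% of all genes, and 0 of 9 downward against 11.2%.

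The cell line pairs the samples, and with the line as a block more genes passed in both directions. With sgBgal 6 of 9 members then rose, Ppp3ca and the 5 above, where 30.2% of all genes did. With sgPpia#3.2 these were 3 of 9 (Nfatc1, Nfat5 and Rcan1) against 25.3%, and with sgPpia#4.1 4 of 9 (the same 3 and Rcan3) against 24.3%. For the mean 8 of 9 rose against 44.1%, and Ppp3cb fell, 1 of 9 against 19.3%. This mean treats the 3 guide RNA samples of a line as separate samples although they share that line.

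All genes together leaned upward in Restored cells on the TPM scale. The median log2 fold change of the 12828 genes was 0.19, 0.17 and 0.15 with sgBgal, sgPpia#3.2 and sgPpia#4.1 and 0.17 for the mean, against 0.45, 0.34, 0.38 and 0.39 over the 9 members tested. After median-of-ratios rescaling, which moves the median of all genes to about 0, the median of the members was 0.25, 0.24, 0.21 and 0.23. For the mean over guide RNAs, 71.4% of the genes that passed were higher before rescaling and 49.4% after it. After rescaling no member passed within a single guide RNA, where 13.0%, 10% and 10.2% of all genes passed with sgBgal, sgPpia#3.2 and sgPpia#4.1. For the mean Nfatc1, Rcan1 and Rcan3 then passed upward, 3 of 9 against 18.3% of all genes, and Ppp3cb downward, 1 of 9 against 18.7%. Of the 9 members tested, 4 (Nfatc1, Rcan1, Nfat5 and Ppp3r1) were higher in the Restored sample of all 9 pairs of the same line and guide RNA, as were 30.8% of all genes tested. In bulk RNA, fewer cells with a transcript and less of it per cell cannot be told apart.

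Nfatc1, a factor known from lymphocytes, heart valves and osteoclasts, had the largest mean difference of the 9 members tested on the log2(TPM + 1) scale. That scale shrinks low genes, and the ratio of mean TPM was larger for Nfatc2 (0.435 in Control and 1.02 in Restored samples) and Nfatc4 (0.0881 and 0.261). In 4711-1 cells it was at 5.15, 4.34 and 5.35 TPM in Control samples with sgBgal, sgPpia#3.2 and sgPpia#4.1 and at 8.34, 8.30 and 9.18 TPM in Restored samples. In 4711-18 cells it was at 4.68, 3.83 and 3.90 TPM and at 11.9, 9.34 and 10.4 TPM. In 4716-11 cells it was at 6.03, 5.83 and 6.93 TPM and at 11.5, 9.71 and 11.1 TPM. Every Restored sample thus lay above every Control sample, and the ratio within a pair of the same line and guide RNA was 1.59 to 2.68, lowest in 4716-11 and highest in 4711-18. The share of all genes tested whose states separate, over all samples or within a line, was not counted. This holds for the members below as well.

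The log2 fold changes of Nfatc1 on the log2(TPM + 1) scale were 0.87 (SE 0.20, limma adjusted p = 0.0093) with sgBgal, 0.85 (SE 0.20, adjusted p = 0.013) with sgPpia#3.2 and 0.84 (SE 0.20, adjusted p = 0.0137) with sgPpia#4.1. For the mean it was 0.85 (95% interval 0.61 to 1.09, adjusted p = 4.32e-05), and it passed under each of 9 alternatives, at adjusted p of at most 0.00506. Within a single guide RNA Nfatc1 missed the adjusted p threshold after rescaling (limma adjusted p = 0.0586 with sgBgal) and in a fit of the compared groups alone (0.0578). The threshold was also missed without any 1 of the 3 lines (up to 0.0935 with sgBgal). An antisense transcript overlaps Nfatc1 in GENCODE M21, and the strand setting of the counting was not given, so reads of the pair cannot be told apart.

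Rcan1, which lies at chr16:92391953-92470867 (GRCm38, minus strand), was the most even member in Control cells. The 9 Control samples held 15.3 to 18.9 TPM, with a mean of 16.8 TPM ± 1.18 (SD, n = 9). Restored samples held 23.3, 20.9 and 21.4 TPM in 4711-1 cells, 25.1, 24.4 and 28.9 TPM in 4716-11 cells, and 43.6, 26.6 and 42.2 TPM in 4711-18 cells, in the order sgBgal, sgPpia#3.2 and sgPpia#4.1. No Restored sample overlapped a Control sample, and 4711-18 was highest, at 2.41 and 2.59 times its Control with sgBgal and sgPpia#4.1 but 1.405 times with sgPpia#3.2. How many of all genes tested separate in this way was not counted.

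The log2 fold changes of Rcan1 were 0.74 (SE 0.24, limma adjusted p = 0.0545), 0.51 (SE 0.24, adjusted p = 0.213) and 0.81 (SE 0.24, adjusted p = 0.0451) with sgBgal, sgPpia#3.2 and sgPpia#4.1. With sgPpia#4.1 the threshold was lost under 6 of 10 alternatives, at a limma adjusted p of up to 0.327. For the mean the value was 0.69 (95% interval 0.39 to 0.98, adjusted p = 0.00134), and it passed under each of 9 alternatives, at adjusted p of at most 0.0443. With the line as a block Rcan1 passed with each guide RNA, at adjusted p of 0.00442, 0.035 and 0.00312. An antisense transcript overlaps Rcan1 too.

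Rcan3, the other RCAN gene measured at more than a trace, was at 12.5 to 22.1 TPM in Control and 18.8 to 29.6 TPM in Restored samples, and the states overlapped. It was higher in 8 of 9 pairs. The exception was 4711-18 with sgPpia#3.2, at 22.1 TPM in Control and 20.4 TPM in Restored cells. That Control sample also had the highest Cdkn1a of the Control samples (369 TPM). The same pair was the exception for Ppp3ca, at 84.4 TPM in Control and 81.9 TPM in Restored cells. The mean log2 fold change of Rcan3 was 0.57 (95% interval 0.28 to 0.87, limma adjusted p = 0.00422), and without 4711-1 the adjusted p was 0.0538. Rcan2, the remaining family member, was at 0.131 to 0.381 TPM.

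Nfat5, the osmotic stress factor, was higher in the Restored sample of all 9 pairs, by 1.14 to 2.32 times. In 4711-1 cells it was at 27.2, 18.9 and 33.0 TPM in Control and at 45.9, 40.4 and 41.3 TPM in Restored samples. In 4711-18 cells the values were 18.3, 16.4 and 11.4 TPM and 34.8, 25.4 and 26.5 TPM, and in 4716-11 cells 13.5, 11.8 and 13.9 TPM and 23.1, 20.5 and 15.8 TPM. The states did not overlap within any line, although Control samples of 4711-1 reached higher than Restored samples of 4716-11. Its mean log2 fold change was 0.71 (95% interval 0.19 to 1.23, limma adjusted p = 0.0319). This lost the threshold after rescaling (0.0854), with no filter (0.0602), without 4711-18 (0.235) and without 4716-11 (0.0691), and with the line as a block it was 7.68e-05.

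Nfatc3, the NFAT factor with the highest level here, was at 26.0 to 41.9 TPM in Control and 34.6 to 53.8 TPM in Restored samples. In 4716-11 cells it went from 27.0, 26.0 and 26.9 TPM to 43.2, 38.6 and 41.5 TPM without overlap, whereas in the other lines the states overlapped. In 4711-1 with sgPpia#4.1 it was at 41.0 TPM in Control and 40.4 TPM in Restored cells. The mean log2 fold change was 0.39 (95% interval 0.15 to 0.63, limma adjusted p = 0.0125). It was 0.20 after rescaling (adjusted p = 0.111), and the threshold was also missed without 4711-18 (0.0541) and without 4716-11 (0.128). Esrp2, a protein-coding gene on the other strand, overlaps Nfatc3.

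**Figure D2:**
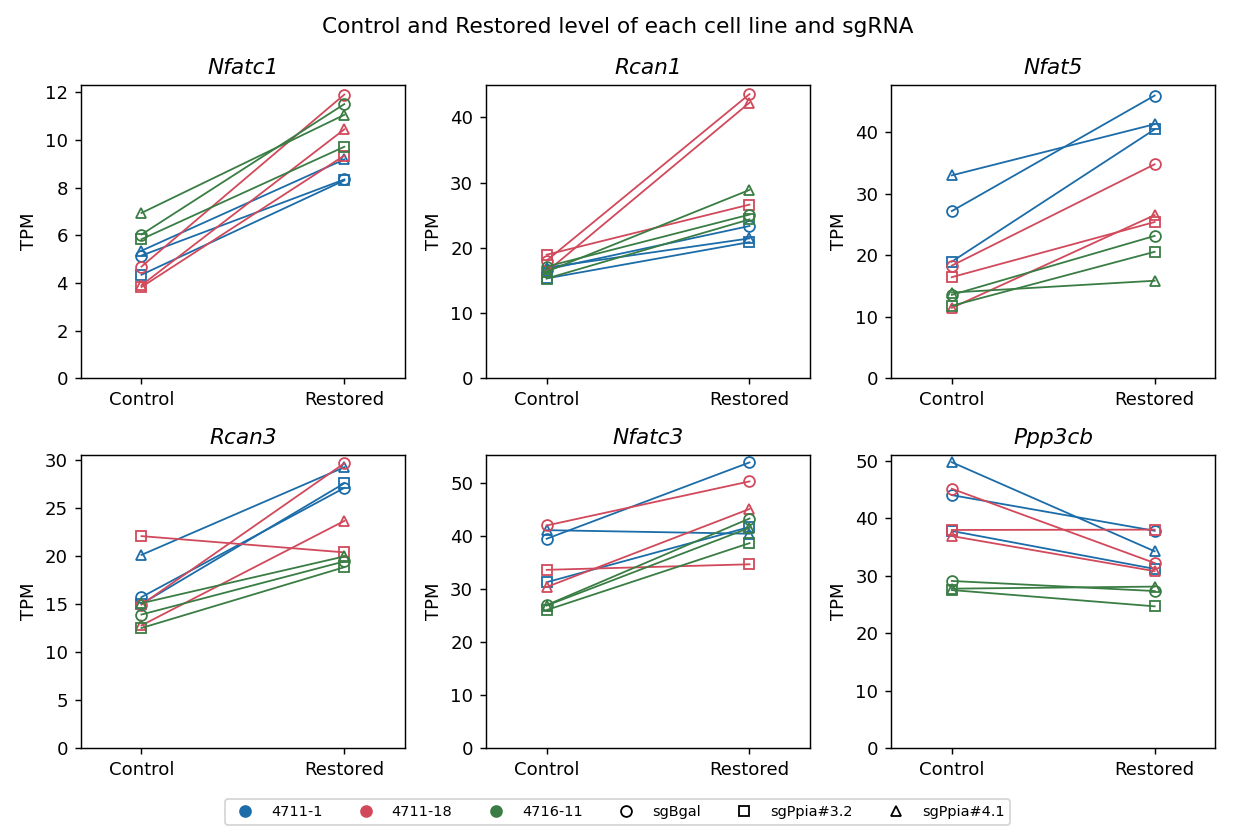
TPM in Control and Restored cells for 6 genes, each line joining the samples of 1 cell line and guide RNA, colored by cell line with a symbol for each guide RNA. All 9 lines slope upward for Nfatc1, Rcan1 and Nfat5, 8 of 9 do for Rcan3 and Nfatc3, and 7 of 9 slope downward for Ppp3cb.

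Of the calcineurin subunits, Ppp3r1, at chr11:17159263-17200375, was higher in 9 of 9 pairs but by 1.03 to 1.25 times only, with a mean log2 fold change of 0.21 (95% interval -0.05 to 0.46, limma adjusted p = 0.181). Its limma adjusted p was 0.0429 with the line as a block, and after rescaling the value was 0.014 (adjusted p = 0.925). Ppp3ca, a catalytic subunit gene, was higher in 8 of 9 pairs, by 0.971 to 1.71 times, with a mean of 0.27 (-0.04 to 0.59, limma adjusted p = 0.153). Blocked by line its limma adjusted p was 0.0261, and after rescaling the value was 0.079 (adjusted p = 0.632). With sgPpia#3.2 Ppp3r1 was at 0.13 as deposited and at -0.064 after rescaling, and Ppp3ca at 0.12 and at -0.074. Wdr92 overlaps Ppp3r1 on the same strand, and its reads may be shared.

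Ppp3cb, at chr14:20499364-20546573 on the minus strand, was the member lower in most pairs, 7 of 9. In 4711-1 cells it was at 44.1, 37.8 and 49.8 TPM in Control and at 37.9, 31.2 and 34.3 TPM in Restored samples, lower in each pair. In 4711-18 cells it was at 45.2, 38.0 and 36.9 TPM and at 32.2, 38.1 and 30.8 TPM. In 4716-11 cells it was at 29.1, 27.5 and 27.8 TPM and at 27.4, 24.7 and 28.1 TPM. The states overlapped in each of the 3 lines. The mean log2 fold change was -0.22 (95% interval -0.51 to 0.08, limma adjusted p = 0.235), and it passed with the line as a block (0.0231) and after rescaling (-0.41, adjusted p = 0.0117). An antisense transcript overlaps this gene as well.

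The level of Ppp3ca relative to Ppp3cb was compared within lines. The ratio of their TPM was 0.789 to 1.302 in Control and 1.57 to 1.96 in Restored samples of 4711-1, and 1.61 to 1.77 against 1.755 to 2.125 in 4716-11. In 4711-18 it was 1.29 to 2.22 against 2.15 to 2.47. The states were apart in 4711-1 and overlapped in the other lines. These ranges pool the guide RNAs of a line, so an overlap does not give the direction within a pair. Ppp3cc was higher in the Restored sample of 9 of 9 pairs at 1.45 to 3.99 TPM in all, and it rose for the mean (0.39, limma adjusted p = 0.0226).

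**Figure D3:**
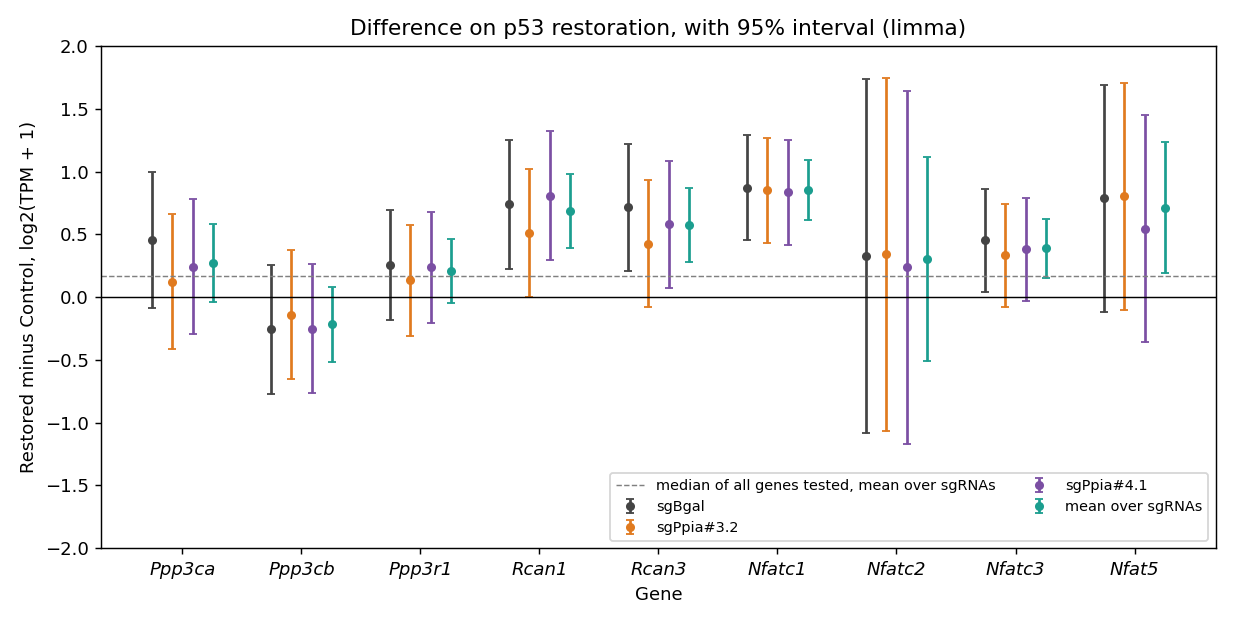
Difference between Restored and Control cells on the log2(TPM + 1) scale for the 9 genes tested, with 95% intervals from limma, within each guide RNA and for the mean over guide RNAs. Nfatc1 lies near 0.85 with every guide RNA, Ppp3cb is the gene below 0, the intervals of Nfatc2 are the widest, and the dashed line marks the median of all genes tested, 0.17.

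Nfatc2, at chr2:168476410-168601657 on the minus strand, was set apart by the cell line and not by the guide RNA. In 4711-18 cells it was at 1.43, 1.07 and 1.15 TPM in Control samples with sgBgal, sgPpia#3.2 and sgPpia#4.1 and at 2.97, 3.10 and 2.59 TPM in Restored samples. In 4711-1 cells it was at 0.0584, 0.0520 and 0.0267 TPM and at 0.329, 0.0874 and 0.0272 TPM. In 4716-11 cells it was at 0.0478, 0.0270 and 0.0591 TPM and at 0.00783, 0.0177 and 0.0376 TPM. All 6 samples of 4711-18 lay above the 12 others, and within that line the Restored samples were 2.08 to 2.89 times the Control samples without overlap.

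The values of a gene in different samples were to each other as whole numbers of reads, within 0.02 of a read. For Nfatc2 the smallest such numbers were 213 to 702 in 4711-18, 7 to 57 in 4711-1 and 2 to 16 in 4716-11, so ratios in the last line rest on few reads. These numbers can be short of the true counts by a common factor. With the line left out of the model, the spread between lines set the error, and the mean difference was 0.30 (95% interval -0.51 to 1.11, limma adjusted p = 0.566). With the line as a block it was 0.30 (95% interval 0.05 to 0.55, adjusted p = 0.035), although 4716-11 pointed the other way. Without 4711-18 the mean difference was 0.046.

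Nfatc4, a factor best known from neurons and heart, was at 0.0417 to 0.668 TPM and was not tested in the fit. In 4711-18 cells it was at 0.0482, 0.0698 and 0.173 TPM in Control and at 0.668, 0.605 and 0.333 TPM in Restored samples. The smallest whole numbers of reads were 6, 8 and 18 against 67, 77 and 35, without overlap. In 4711-1 cells it stayed at 0.0417 to 0.0822 TPM in both states, and in 4716-11 cells it was at 0.0661 to 0.144 TPM and at 0.0957 to 0.258 TPM. A two-sided exact permutation test of the mean log2(TPM + 1) of 3 against 3 gave p = 0.2, 0.3 and 0.7 for restoration with the 3 guide RNAs, and 0.8 after adjustment over 7 comparisons. Such a test cannot go below 0.1.

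**Figure D4:**
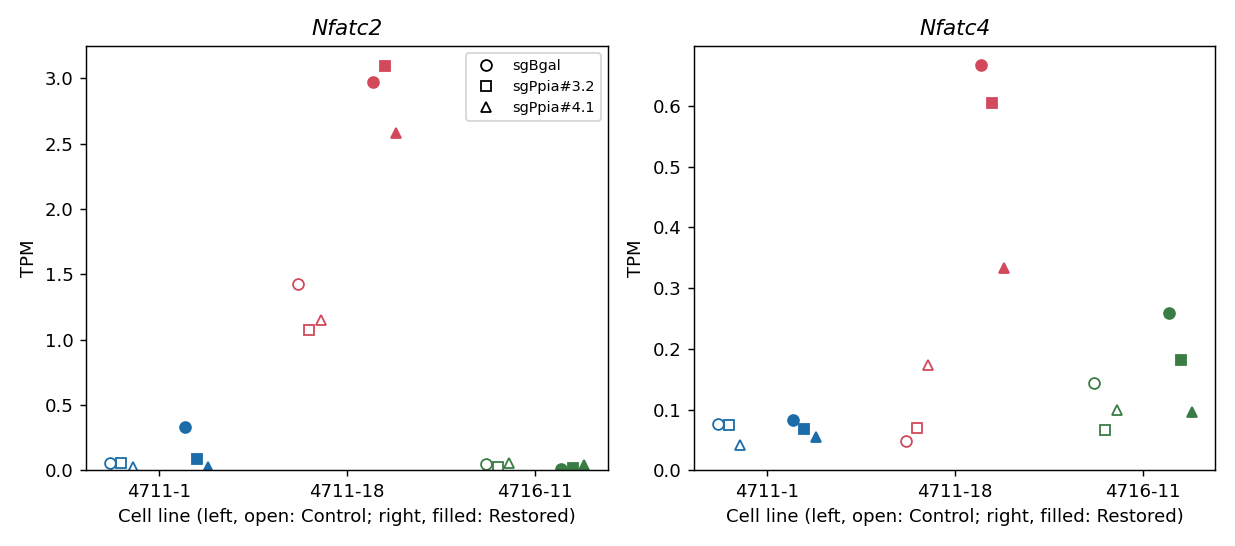
TPM of Nfatc2 and Nfatc4 by cell line, Control samples open and to the left, Restored samples filled and to the right, with a symbol for each guide RNA. Nfatc2 is at 1.07 to 3.10 TPM in 4711-18 and at or under 0.329 TPM in the other lines, and the 3 highest Nfatc4 values are the Restored samples of 4711-18.

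Levels by line were compared as a description, counting a gene when all 6 samples of a line lay outside the range of the 12 others. For 4711-18, Nfatc2 lay above, but it entered the test through that line and is not counted. None of the other 8 members lay above, where 4.35% of all genes tested did, and 0 of 9 lay below (2.57%). For 4716-11, 1 of 9 lay below (Ppp3cb, at 24.7 to 29.1 TPM against 30.8 to 49.8 TPM), where 3.89% did, and 0 of 9 lay above (2.01%). For 4711-1 no member lay above (2.99%) or below (2.35%). With 3 Control samples of a line against 6, a rule that more genes meet, Nfat5 lay above in 4711-1 (10.5% of all genes tested) and no member below (8.49%). In 4716-11 Nfatc1 lay above (6.43%) and Ppp3cb and Nfatc3 below (14.4%). In 4711-18 no member but Nfatc2 lay above (13.4%), and none lay below (8.05%).

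Lowering Ppia was the second comparison, which asks whether calcineurin and NFAT genes differ when cyclophilin A is reduced. With limma no member passed with either Ppia guide RNA in Control or in Restored cells, 0 of 9 in each of the 4 comparisons. Of all genes tested 0% passed in these comparisons, and 27 to 311 genes but 0 of the 9 members had an unadjusted p under 0.05. This fit did not pass the targeted gene either, with Ppia at -1.51 (adjusted p = 0.472) with sgPpia#3.2 in Control cells, whereas with the line as a block its limma adjusted p was 0.00153, so the count of 0 shows little. The 4 comparisons share the sgBgal samples of their state. With the line as a block the counts over all genes were 2 and 0 in Control and 1 and 0 in Restored cells with sgPpia#3.2 and sgPpia#4.1, and no member was among them. Of the members, Nfatc3 with sgPpia#3.2 in Restored cells then had an unadjusted p under 0.05, 1 of 9 where 8.64% of all genes tested did.

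The largest member differences were 0.36 for Ppp3ca with sgPpia#3.2 in Control cells (95% interval -0.18 to 0.90), -0.35 for Nfatc3 with sgPpia#3.2 in Restored cells (-0.76 to 0.06) and -0.35 for Nfat5 with sgPpia#4.1 in Restored cells (-1.25 to 0.55). For Nfatc3 the values in Restored cells were 53.8, 50.2 and 43.2 TPM with sgBgal and 41.6, 34.6 and 38.6 TPM with sgPpia#3.2, in the order 4711-1, 4711-18 and 4716-11. These did not overlap, yet the adjusted p was 1 without the block and 0.57 with it. Line by line in Restored cells, Nfat5 was at -0.18, -0.44 and -0.16 with sgPpia#3.2 and at -0.15, -0.38 and -0.52 with sgPpia#4.1, against the same sgBgal samples. In Restored cells 5 of 9 members (Ppp3r1, Nfatc1, Nfatc3, Nfat5 and Rcan1) were lower than sgBgal in all 3 lines with sgPpia#3.2, as were 33.8% of all genes tested, and 2 of 9 (Nfatc3 and Nfat5) with sgPpia#4.1, as were 26.2%. In Control cells a partly different 5 of 9 (Ppp3cb, Nfatc1, Nfatc2, Nfatc3 and Nfat5) were lower in all 3 lines with sgPpia#3.2 (29.1%). With sgPpia#4.1 0 of 9 were (16.4%). Ppp3ca was higher in all 3 lines with sgPpia#3.2 in Control cells, 1 of 9 where 8.96% of all genes tested were. For Nfatc1 the interval was -0.58 to 0.26 with sgPpia#3.2 and -0.42 to 0.42 with sgPpia#4.1 in Control cells, and -0.60 to 0.24 and -0.45 to 0.38 in Restored cells. The intervals of Nfatc2 and Nfat5 reached beyond 1 in at least 1 direction without the block. With the line as a block they did not, and the widest on the low side were -0.59 to 0.27 for Nfatc2 and -0.75 to 0.06 for Nfat5, both with sgPpia#4.1 in Restored cells.

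**Figure D5:**
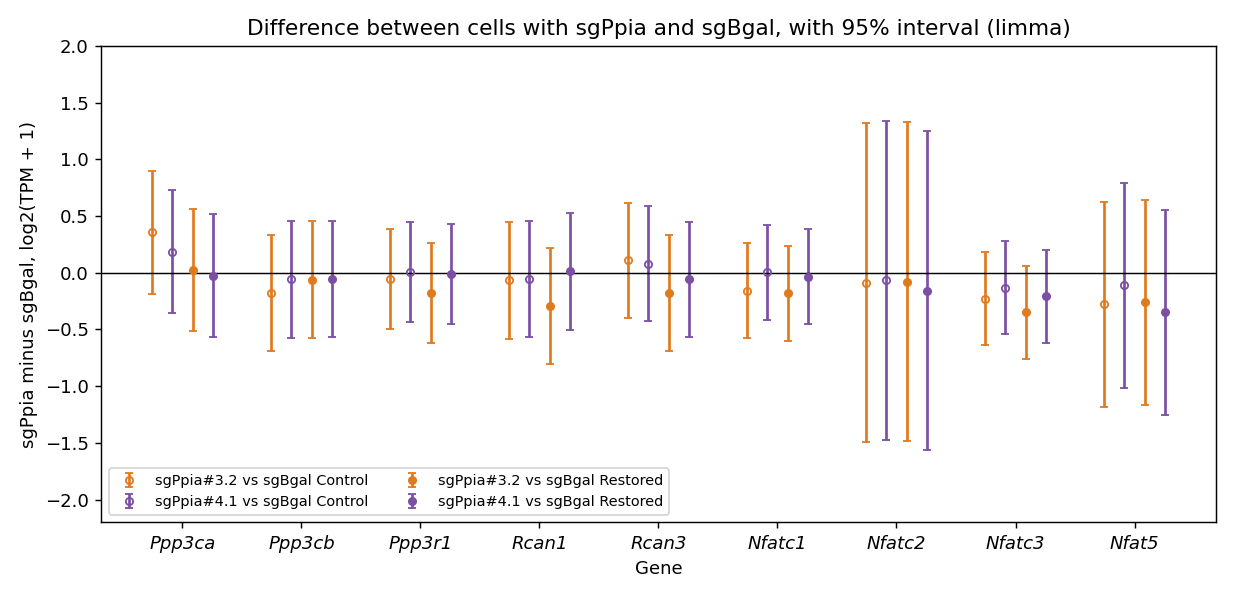
Difference between cells with a Ppia guide RNA and cells with sgBgal on the log2(TPM + 1) scale for the 9 genes tested, open symbols for Control and filled symbols for Restored cells, with 95% intervals from limma without the block. Every interval takes in 0, and the points lie between -0.35 and 0.36.

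Whether the response to p53 differed with the guide RNA was tested as an interaction. No member passed with sgPpia#3.2 or sgPpia#4.1, 0 of 9 each, where 0% of all genes tested passed and 31 and 18 genes, again 0 members, had an unadjusted p under 0.05. The member estimates ran from -0.33 (Ppp3ca, 95% interval -1.09 to 0.43) to 0.12 (Ppp3cb, -0.61 to 0.84) with sgPpia#3.2 and from -0.24 to 0.07 with sgPpia#4.1. For Nfatc1 they were -0.02 (-0.62 to 0.57) and -0.04 (-0.63 to 0.56). The lower Rcan1 level with sgPpia#3.2 in Restored 4711-18 cells was a value of a single sample, and the interaction of Rcan1 with that guide RNA was -0.23 (-0.95 to 0.50).

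Other genes of the pathway were taken from lists, read for the mean over guide RNAs and by the adjusted p alone, where 27.9% of all genes tested rose and 11.2% fell. The list counts were made on the TPM as deposited, and rescaling was not applied to them. Of 10 genes for calcium entry and release, 6 rose and 1 fell, with a median log2 fold change of 0.55 against 0.17 over all genes. Orai2, a subunit of the store-operated channel, rose by 1.80 (limma adjusted p = 4.95e-05) from a mean of 49.5 TPM ± 19.2 to 165 TPM ± 34.8 (SD, n = 9 each). Stim1, the sensor of calcium in the endoplasmic reticulum, rose by 1.11 (adjusted p = 8.92e-07) from 22.8 TPM ± 3.01 to 50.4 TPM ± 6.38, and the inositol trisphosphate receptor gene Itpr2 by 1.06 (adjusted p = 0.0182). Orai3 was the gene that fell (-0.40, adjusted p = 0.00449). Within sgBgal, sgPpia#3.2 and sgPpia#4.1 alone 2, 2 and 3 of the 10 rose, where 9.86%, 7.62% and 7.16% of all genes did. With the line as a block 7 of the 10 rose and 1 fell for the mean, where 44.1% and 19.3% of all genes did.

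Of 7 NFAT kinases, which add back the phosphates that calcineurin removes, 4 rose and none fell, with a median of 0.29. They were Csnk1e (0.63, limma adjusted p = 0.000564), Gsk3b (0.62, 0.000992), Csnk1d (0.51, 0.00726) and Dyrk1a (0.29, 0.0433). Within sgBgal, sgPpia#3.2 and sgPpia#4.1 alone 2, 0 and 1 of the 7 kinases rose, against the same shares of all genes as above. With the line as a block 5 of the 7 rose for the mean, where 44.1% of all genes did. Of 13 regulators and anchors 10 were tested, and 3 rose (Rcan1, Rcan3 and the anchor gene Akap1 at 0.62) and 2 fell, with a median of -0.08. Those that fell were the calmodulin gene Calm3 (-0.59, adjusted p = 0.00482) and Fkbp1a (-0.47, adjusted p = 0.000785), which encodes the FK506-binding protein. With the line as a block 3 of the 10 rose and 4 fell, where 44.1% and 19.3% of all genes did. Ppia itself was at -0.21 (limma adjusted p = 0.287, and 0.0459 with the line as a block).

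Of 9 other calcineurin substrates tested 4 rose, with a median of 0.33, among them the dynamin gene Dnm1 (1.02, limma adjusted p = 0.00258) and the transcription factor gene Mef2a (0.71, adjusted p = 0.000472). Within sgBgal, sgPpia#3.2 and sgPpia#4.1 alone 1, 0 and 0 of the 9 rose, and with the line as a block 6 did for the mean. Of 11 NFAT target genes known from lymphocytes, 5 were tested, and Il2, Il4, Ifng, Tnf, Fasl and Cd40lg were too low. Csf2, a cytokine gene, rose by 1.91 (adjusted p = 0.00045) and Ptgs2, the inducible cyclooxygenase gene, by 1.49 (adjusted p = 0.01). Egr2 (-0.92, adjusted p = 0.257), Egr3 (-0.80, adjusted p = 0.0622) and Nr4a1 (-0.63, adjusted p = 0.315) did not pass, and the median of the 5 was -0.63. With the line as a block 2 of the 5 rose and 1 fell, against the same 44.1% and 19.3%. Of 6 NFAT5 target genes 4 were tested, with a median of -0.04, and Hspa4l fell (-0.38, adjusted p = 0.046). Slc6a6, a taurine transporter gene, rose with the line as a block (0.32, limma adjusted p = 0.0148), 1 of the 4 up and 1 down. These are counts for the lists and say nothing of which factor acts on them.

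The 3 genes most like Nfatc1 over the 18 samples were Psap (Pearson r of log2(TPM + 1) 0.967), which encodes a lysosomal precursor protein, Tshz1 (0.963), a zinc finger factor gene, and Abcb1b (0.961), a drug efflux pump gene. By Spearman's measure the same 3 genes led, with 0.957, 0.961 and 0.952. The points share the 9 Control and 9 Restored samples of 3 lines, so any gene with the same step between states is alike by this measure. Of the members, Rcan1 was nearest to Nfatc1 with r = 0.805, Rcan3 came next with 0.613, and Ppp3cb had -0.56. By Spearman's measure Rcan1 was nearest too (0.831), but Nfatc3 (0.546) came before Rcan3 (0.523).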

How the data were processed

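RNA of 18 samples was sequenced. The authors deposited TPM for 25239 genes. Submitters' processing notes name bcl2fastq 2.17 and HISAT2 and both mm10 and GRCm39. The methods text also names Kallisto, limma and DESeq2 without saying which served these samples, and the counter and annotation are not given in the sources used here. Groups came from the sample labels, and no column was left unassigned.

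The test was limma 3.58.1 (R 4.3.3) on log2(TPM + 1), which understates changes of low genes. It used 1 mean for each of 6 conditions over all 18 samples, with Benjamini-Hochberg adjustment over 12828 genes at 1 TPM or more in at least 3 samples. A call needed a 2-fold change as well as an adjusted p under 0.05, and an interaction only the latter. The rule of the adjusted p alone was added after seeing the data. Nfatc4 was compared by an exact permutation test (scipy 1.17.1, Python 3.11.15). TPM carry no total count, so no counting interval was computed. Fits were tested on simulated data.

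Samples pair by cell line, which the labels give. The deviations of the same line in different conditions correlated by 0.58 to 0.87 across genes in 45 pairs. Alternatives were the line as a block, median-of-ratios rescaling, a pseudocount of 0.1, no filter, a filter of 5 TPM, a fit of only the groups compared, robust eBayes with a trend, and leaving out each line. The members, lists and tests were chosen with earlier results of these data known. Named genes were the members, up to 4 genes past the threshold for each list, the 3 genes most correlated with Nfatc1, and Trp53, Cdkn1a and Ppia as checks. Promoter windows were taken from RefSeq (GRCm38.p6), and gene positions and overlaps from GENCODE M21 (GRCm38).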

Additional observations from a re-analysis of the deposited data

Results flagged for a closer look

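Nfatc2 differed in direction between cell lines. It was higher in the Restored sample with all 3 guide RNAs in 4711-18 cells, by 0.811 on average on the log2(TPM + 1) scale (0.711 to 0.983), and lower with all 3 in 4716-11 cells, by an average of -0.033 (-0.056 to -0.013), a gap of 0.84. It was also higher with all 3 in 4711-1 cells, by 0.126 (0.001 to 0.328), a gap of 0.16 to 4716-11. The difference between lines was not tested. The 4716-11 values rest on as few as 2 reads in the smallest whole-number ratios. In 4711-1 the pair with sgPpia#4.1 was at 0.0267 TPM in Control and 0.0272 TPM in Restored cells, from 8 and 7 such reads. The highest number in that line was 57, in the Restored sample with sgBgal. Of the 12828 genes tested, 794 (6.19%) moved up in all 3 samples of 1 line and down in all 3 of another.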

How the results depend on the processing

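No member was called at 2-fold under the main test, and the counts here use the adjusted p alone, 1, 1, 2 and 5 members, all up, for restoration with sgBgal, sgPpia#3.2, sgPpia#4.1 and the mean. With the cell line as a block, the pairing the labels give, the counts were 6, 3, 4 and 9, all up but Ppp3cb in the mean, where 30.2%, 25.3%, 24.3% and 44.1% of all genes rose and 19.3% fell in the mean. After median-of-ratios rescaling they were 0, 0 and 0 within the guide RNAs, and with a fit of only the compared groups also 0, 0 and 0, where 6.7%, 3.0% and 3.28% of all genes passed. A filter of 5 TPM, under which Nfatc2 was not tested, gave 2 of 8 up with sgBgal, where 11% of 10591 genes rose, and no filter gave 1 of 10 up with sgPpia#4.1, where 3.83% of 21824 genes rose. Leaving out each line gave 0 to 0 within each guide RNA (1.79% to 7.58% of all genes passed) and 3 to 4 of 9 up for the mean (17.8% to 21.1% of all genes rose). In Control samples alone, 1 member stood apart in 4711-1 (above, as 10.5% of all genes did) and 3 in 4716-11 (1 above and 2 below, where 6.43% and 14.4% of all genes lay). Differences between guide RNAs and interactions gave 534 values for 54 differences under the alternatives, none past the threshold (lowest limma adjusted p 0.407), between -0.53 and 0.51. Near 0 their sign was not settled, with 46 reversals. Values that changed sign after rescaling, on the log2 scale, were Ppp3ca -0.074 and Ppp3r1 -0.064 for restoration with sgPpia#3.2, Ppp3r1 0.033 and Rcan1 0.018 for sgPpia#3.2 in Control cells, Ppp3cb 0.041 for sgPpia#3.2 in Restored cells, Ppp3ca 0.055 and Ppp3cb 0.025 and Ppp3r1 0.069 and Nfatc1 0.040 and Rcan3 0.022 for sgPpia#4.1 in Restored cells, Ppp3r1 0.020 and Nfatc1 0.0028 for the interaction with sgPpia#4.1. With a pseudocount of 0.1 they were Nfatc1 -0.0016 for sgPpia#4.1 in Control cells and Nfatc2 -0.12 for the interaction with sgPpia#3.2. Leaving out a line turned the sign of others, given as lowest to highest. For restoration with sgPpia#4.1 these were Nfatc2 -0.014 to 0.37. For sgPpia#3.2 in Control cells these were Ppp3r1 -0.15 to 0.034, Rcan3 -0.10 to 0.23. For sgPpia#4.1 in Control cells these were Ppp3ca -0.090 to 0.38, Ppp3cb -0.17 to 0.054, Ppp3r1 -0.18 to 0.10, Nfatc1 -0.083 to 0.11, Nfatc3 -0.23 to 0.026, Nfat5 -0.30 to 0.15, Rcan3 -0.050 to 0.22. For sgPpia#3.2 in Restored cells these were Ppp3ca -0.052 to 0.11, Ppp3cb -0.21 to 0.045, Nfatc2 -0.14 to 0.029. For sgPpia#4.1 in Restored cells these were Ppp3ca -0.078 to 0.077, Ppp3r1 -0.11 to 0.090, Nfatc1 -0.11 to 0.036, Rcan1 -0.080 to 0.076, Rcan3 -0.14 to 0.071. For the interaction with sgPpia#3.2 these were Ppp3cb -0.060 to 0.21, Nfatc1 -0.13 to 0.057, Nfatc2 -0.12 to 0.16, Nfat5 -0.13 to 0.17, Rcan1 -0.40 to 0.036, Rcan3 -0.48 to 0.093. For the interaction with sgPpia#4.1 these were Ppp3ca -0.46 to 0.015, Ppp3cb -0.10 to 0.16, Ppp3r1 -0.12 to 0.077, Nfatc1 -0.094 to 0.059, Nfatc2 -0.15 to 0.027, Nfatc3 -0.26 to 0.12, Rcan1 -0.025 to 0.18. The cause of these changes was not tested. TPM carry no read totals, and 3 lines limit what each test can show. For Nfatc2 outside 4711-18 and for Nfatc4, few reads limit the ratios.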
